A study of Homo sapiens with 12 samples.

Results

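The junctions that hold epithelial cells together were followed at the RNA level after loss of SMARCA4 in triple-negative breast cancer cells. The genes were taken from a list of 36 symbols of tight junctions, adherens junctions, desmosomes, cell polarity, and the splicing and transcription factors of epithelial cells. Of these, 34 were among the 11529 genes of the expression table, and PKP1 and OVOL1 were not analysed here. By role, the 34 comprised 11 tight junction genes, 5 adherens junction genes, 7 desmosome genes, 3 adhesion and polarity genes, 5 splicing and transcription factors, and 3 genes of the matriptase system.

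RNA was sequenced from 12 samples of the human breast cancer lines MDA-MB-468, of the basal-like subtype, and MDA-MB-231, of the mesenchymal stem-like subtype. Each line had 3 control samples, titled wild type, and 3 SMARCA4 KO samples. KO cells were polyclonal pools carrying lentiCRISPR-v2 with 1 sgRNA against SMARCA4 and selected with puromycin. The sample descriptions call the same samples control. In the study, the legend to its SMARCA4 protein blot lists wild type cells and cells with a nontargeting control vector separately. Which of these the RNA controls were is not settled by the labels. Since a pool can hold edited and unedited cells, a smaller change in every cell and a larger change in some cells cannot be told apart. No source used here says that replicates were separate cultures, so p-values measure the spread between these samples, which may be technical.

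Tight junctions seal the space between neighbouring epithelial cells. Claudins and occludin form their strands, and the scaffold proteins of the TJP family and cingulin tie them to actin. Below them, adherens junctions are built from cadherins bound to catenins, and desmosomes from desmogleins and desmocollins that are anchored to keratin through plakoglobin, plakophilins and desmoplakin. CRB3 and LLGL2 set apical and basolateral identity, ESRP1 and ESRP2 direct epithelial splicing, and GRHL and OVOL factors maintain epithelial transcription. Loss of these genes, with CDH1 (E-cadherin) as the best known, marks the epithelial-to-mesenchymal transition, in which ZEB and SNAI repressors bind E-boxes in their promoters.

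The reads behind each sample are not known from the values, which are log2(FPKM + 1), where FPKM is fragments scaled to gene length and to the library's total. Between 11293 and 11362 genes were above 0 in each sample. The targeted gene was lower in both lines. SMARCA4 fell by 1.16 on the log2 scale in MDA-MB-468 cells, from 6.64 ± 0.035 to 5.48 ± 0.13 (SD, n = 3; adjusted p = 0.014), and by 1.57 in MDA-MB-231 cells, from 6.12 ± 0.05 to 4.55 ± 0.087 (SD, n = 3; adjusted p = 0.0014). All p-values are from limma with Benjamini-Hochberg adjustment over the 11529 genes, and a gene was called with an adjusted p under 0.05 and a log2 fold change (FC) over 0.5 in size. The summed FPKM of the 9 epithelial markers, all 9 in the table, was 6344 to 6634 in control and 7166 to 7835 in KO MDA-MB-468 cells. In MDA-MB-231 cells it was 959 to 1502 in control and 1502 to 1666 in KO cells, with KRT6A listed at 0. Of 6 mesenchymal markers 4 were in the table, with sums of 842 to 981 (control) and 769 to 887 (KO) in MDA-MB-468 cells, and of 1853 to 2090 (control) and 1607 to 1766 (KO) in MDA-MB-231 cells. Most of the mesenchymal sum in MDA-MB-468 cells was CD44, at 890 FPKM in control cells, against 482 FPKM in control MDA-MB-231 cells. The other mesenchymal markers in the table, VIM, ZEB1 and FN1, were lower in control MDA-MB-468 cells. VIM was at 2.61 FPKM in control MDA-MB-468 and RB1 at 0.28 FPKM, against 17.8 FPKM for RB1 in control MDA-MB-231 cells. No fibroblast or endothelial marker was in the table (0 of 6 and 0 of 3), and of 5 leukocyte markers 1 was.

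The promoters of the 3 genes with the smallest adjusted p in MDA-MB-231 KO cells are shown first. Their part in the values below was not tested. They are the 250 bases before the start of CGN, CLDN3 and TJP3 from RefSeq (GRCh38.p14), 5′ to 3′ on the gene's own strand. TJP3 has a pair of starts and is shown at each. The table used has no entry for CDH1 or LLGL2. Capitals mark matches to the E-box CAGGTG or its reverse complement CACCTG, and to the grainyhead motif AACCNGTT or its reverse complement.
CGN, chr1:151511137-151511386, + strand: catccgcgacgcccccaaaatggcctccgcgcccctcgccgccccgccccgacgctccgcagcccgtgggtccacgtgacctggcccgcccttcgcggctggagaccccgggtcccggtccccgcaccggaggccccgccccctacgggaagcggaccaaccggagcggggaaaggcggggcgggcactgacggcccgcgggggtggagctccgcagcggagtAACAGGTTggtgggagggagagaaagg
CLDN3, chr7:73770271-73770520, − strand: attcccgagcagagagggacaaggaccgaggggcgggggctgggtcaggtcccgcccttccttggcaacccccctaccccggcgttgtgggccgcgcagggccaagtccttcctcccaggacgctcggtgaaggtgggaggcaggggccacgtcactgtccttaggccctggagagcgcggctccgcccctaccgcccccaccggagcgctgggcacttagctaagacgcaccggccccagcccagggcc
TJP3, chr19:3708134-3708383, + strand: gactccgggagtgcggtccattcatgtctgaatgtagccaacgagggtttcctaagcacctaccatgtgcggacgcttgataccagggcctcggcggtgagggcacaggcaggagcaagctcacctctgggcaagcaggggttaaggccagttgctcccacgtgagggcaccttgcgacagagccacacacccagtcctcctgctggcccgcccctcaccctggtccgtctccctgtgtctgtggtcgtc
TJP3, chr19:3721487-3721736, + strand: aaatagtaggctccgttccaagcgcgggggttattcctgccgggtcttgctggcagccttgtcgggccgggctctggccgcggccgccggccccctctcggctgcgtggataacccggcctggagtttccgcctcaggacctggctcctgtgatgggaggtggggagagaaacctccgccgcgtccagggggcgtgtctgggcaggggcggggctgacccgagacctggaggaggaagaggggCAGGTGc

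The CGN promoter held the grainyhead motif, beginning 27 bases before the start, and no E-box. The second TJP3 promoter held an E-box that begins 7 bases before the start, and the first TJP3 promoter held neither motif. CLDN3 had an E-box beginning 37 bases after its start, beyond the stretch shown. Over 300-base windows (250 before to 50 after the start), the E-box was in 20.6% of 35116 windows of all genes and in 12 of 31 windows (38.7%) of the 19 members with an entry. AACCNGTT was in 1.73% of all windows and in 1 member window, that of CGN. The ratio of observed to expected CpG had a median of 0.786 in the member windows and 0.579 in all windows. A match says only that these letters are there, and a window without one says nothing of the factor.

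Before any KO, the 2 lines differed widely in these genes. In control cells, 29 of the 34 genes were called higher in the MDA-MB-468 line, where 32.7% of all genes were called higher, and 2 of 34 were called lower, where 31.4% of all genes were. The median difference was 3.44 on the log2 scale, against 0.012 over all genes. The median gene of the list was at 46.1 FPKM in control MDA-MB-468 and at 3.41 FPKM in control MDA-MB-231 cells, where 13 of the 34 were under 1 FPKM. Each line is 1 cell line, so the test covers samples of these lines only. The table holds only genes with a mean and an SD of at least 1 FPKM over all samples by the authors' filter, and 10 of the 34 had a mean under 1 FPKM over the 6 MDA-MB-231 samples and 0 over the 6 MDA-MB-468 samples. Such genes passed through MDA-MB-468 alone and had to differ between the lines.

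Among tight junction genes, 10 of 11 were called higher in control MDA-MB-468 cells. TJP3 (ZO-3), a scaffold of the strands, had the widest gap: 59.9, 57.3 and 58.7 FPKM in MDA-MB-468 and 0.28, 0.72 and 0.56 FPKM in MDA-MB-231 control cells, a difference of 5.30 ± 0.11 (SE, log2). MARVELD3, a relative of occludin, followed at 4.19, from at most 0.05 FPKM in control MDA-MB-231 cells. CLDN1 (3.79), CLDN3 (3.55), CGN (3.47), CLDN7 (3.41) and F11R, the adhesion molecule JAM-A (3.31), were close to each other. MARVELD2 (tricellulin, 2.05) and OCLN (occludin, 1.29) differed less. CLDN4, at a mean of 71.4 FPKM in MDA-MB-231 cells, was the claudin with the smallest gap (0.80). TJP1 (ZO-1) overlapped between the lines: 22.1, 22.6 and 23.4 FPKM in MDA-MB-468 and 22, 22.4 and 21.8 FPKM in MDA-MB-231 controls, a difference of 0.04 with a 95% interval of -0.11 to 0.19. Values of F11R look like the mean of 2 table rows, so its level may not be that of 1 gene model.

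The adherens junction was split by role. Both cadherins were nearly silent in MDA-MB-231 cells. CDH1 had 51.8, 42.1 and 39.4 FPKM in control MDA-MB-468 and 0.12, 0.27 and 0.41 FPKM in control MDA-MB-231 cells, a difference of 5.16 ± 0.13 (SE, log2). CDH3 (P-cadherin), which lies 9824 bases from CDH1 on chromosome 16, differed by 5.10. The catenins, which bind the cadherin tail, were abundant in both lines. CTNNA1 (α-catenin) was the highest of all 34 genes in control MDA-MB-231 cells, at 229 FPKM, and was 2.04 lower in MDA-MB-468 cells on the log2 scale. CTNNB1 (β-catenin) read 94.2, 99.3 and 99.9 FPKM in MDA-MB-468 and 125, 140 and 135 FPKM in MDA-MB-231 controls. Its groups did not overlap, and the difference of -0.44 (adjusted p = 0.00059) was under the limit of 0.5. CTNND1 (p120-catenin) was 0.95 higher in MDA-MB-468 cells.

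Desmosome genes showed gaps of every size. DSC2 (desmocollin 2) had the widest: 21.8, 19.2 and 19.7 FPKM in MDA-MB-468 and 0.69, 0.94 and 0.74 FPKM in MDA-MB-231 controls, a difference of 3.57 ± 0.084 (SE, log2). DSC3, its neighbour 16025 bases away on chromosome 18, had a mean of 10.5 FPKM in MDA-MB-468 controls and was listed at 0 in all 6 MDA-MB-231 samples. DSP (desmoplakin, 2.17), PKP3 (plakophilin 3, 2.05) and JUP (plakoglobin, 1.85) followed. PKP2 (plakophilin 2) read 16, 15.6 and 15.9 FPKM in MDA-MB-468 and 14.5, 16.7 and 13.5 FPKM in MDA-MB-231 controls. These overlapped, with a difference of 0.087 and an interval of -0.12 to 0.29. DSG2 (desmoglein 2) was the other gene called lower in MDA-MB-468 cells, with a difference of -0.83 and mean levels of 13.4 and 24.4 FPKM.

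All 11 genes of the remaining roles were called higher in control MDA-MB-468 cells. CRB3 (Crumbs 3) read 34.4, 32.8 and 33.1 FPKM there and 0.04, 0.46 and 0.38 FPKM in MDA-MB-231 controls, a difference of 4.75. EPCAM, the epithelial adhesion molecule, read 297, 302 and 307 FPKM against 12.4, 12.8 and 16.7 FPKM (4.35), and LLGL2 read 61.7, 60 and 59.3 FPKM against 3.53, 4.71 and 4.45 FPKM (3.56). No sample of either line overlapped the other for these 3 genes. The splicing factor ESRP1 had 56.3, 52.6 and 54.5 FPKM in MDA-MB-468 and 0.02, 0 and 0.02 FPKM in MDA-MB-231 controls. Its paralog ESRP2 was expressed in both lines, at 33.4, 28.7 and 29.2 FPKM and at 4.29, 5.03 and 6.26 FPKM. On the log2 scale the paralogs differed between the lines by 5.77 and 2.35. GRHL1 (4.98), GRHL2 (4.34) and OVOL2 (2.97), the transcription factors, were each under 1 FPKM in every MDA-MB-231 sample. ST14 (matriptase), a membrane protease of epithelia, had the widest gap of all 34 genes, 6.01 ± 0.13 (SE, log2), with 115, 122 and 118 FPKM in MDA-MB-468 and 0.5, 1.04 and 1.08 FPKM in MDA-MB-231 controls. Its inhibitor SPINT2 was the highest member in MDA-MB-468 controls and differed less (1.63), with 534, 540 and 538 FPKM in MDA-MB-468 and 139, 170 and 221 FPKM in MDA-MB-231 controls. SPINT1, the other inhibitor, differed by 4.59.

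After KO in MDA-MB-468 cells, the line with high levels, no member was called higher (0 of 34, where 1.33% of all genes were called) and none lower (0 of 34, where 0.815% were). The 34 genes split evenly, 17 above and 17 below the control mean, with a median log2 FC of -0.0011 and a range of -0.26 to 0.64. An unadjusted p under 0.05 was found for 14 of them (41.2%; 25.1% of all genes). All 3 KO samples lay above all 3 controls for 12 genes (17.5% of all genes did so) and below them for 9 genes (13.5% of all genes). The median member was at 46.1 FPKM in control and 43.7 FPKM in KO cells.

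Tight junction genes of MDA-MB-468 cells were mostly on the higher side, 8 of 11. CLDN1 had the largest value, with 92.8, 64.8 and 58.4 FPKM in KO and 29.3, 52.9 and 58.6 FPKM in control samples. The groups overlapped, and the log2 FC of 0.64 had a wide interval, -0.12 to 1.40 (adjusted p = 0.26). CGN had 20.9, 21.6 and 22.4 FPKM in KO and 18.7, 18.3 and 17.6 FPKM in control samples, a log2 FC of 0.23 (adjusted p = 0.06). CLDN3 (0.26), MARVELD3 (0.34), OCLN (0.21) and TJP1 (0.20) also had all KO samples above the controls, with adjusted p from 0.15 to 0.25. CLDN7 lay on the other side, at a mean of 223 FPKM in control and 186 FPKM in KO cells (log2 FC of -0.26, adjusted p = 0.084). TJP3 had 65.2, 61.5 and 56 FPKM in KO cells, around its control values, with an interval of -0.11 to 0.22. The remaining values were 0.096 for CLDN4, -0.056 for F11R and -0.13 for MARVELD2.

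CDH1 in MDA-MB-468 KO cells had 36.8 and 37.2 FPKM, below the control range of 39.4 to 51.8 FPKM, and 39.6 FPKM, just inside it. The log2 FC was -0.22 with an interval of -0.48 to 0.05 (adjusted p = 0.27). EPCAM had 282, 291 and 275 FPKM in KO cells, each below every control, with a log2 FC of -0.095 and an interval of -0.20 to 0.014 (adjusted p = 0.25). These intervals leave out a loss of 0.5 or more on the log2 scale for both genes. The other adherens junction genes had log2 FCs of -0.10 (CTNND1), -0.066 (CTNNA1), -0.044 (CDH3) and 0.097 (CTNNB1).

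Of the desmosome genes of MDA-MB-468 cells, PKP3 (0.23), PKP2 (0.16) and JUP (0.10) had all KO samples above the controls, and DSC2 (-0.23) and DSP (-0.16) all below, with adjusted p from 0.083 to 0.23. DSC3 (-0.24) and DSG2 (0.05) overlapped. Both polarity genes were higher by less than the limit, LLGL2 by 0.17 (adjusted p = 0.084) and CRB3 by 0.13 (adjusted p = 0.16). ESRP1 (-0.13) and ESRP2 (-0.19) lay below the controls in all 3 KO samples, OVOL2 (0.22, adjusted p = 0.062) lay above, and GRHL1 (-0.14) and GRHL2 (0.042) overlapped. The matriptase system was on the lower side, with log2 FCs of -0.25 for SPINT1 (adjusted p = 0.092), -0.12 for SPINT2 and -0.066 for ST14.

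In MDA-MB-231 cells, the line with low levels, 5 of 34 genes were called higher after KO, where 2.39% of all genes were, and 0 of 34 lower, where 1.31% were. The 5 were TJP3, CLDN3 and CGN of the tight junction, CDH1 of the adherens junction and LLGL2 of the polarity genes. In all, 27 of 34 genes (79.4%) lay above the control mean, against 47.6% of all genes, and the median log2 FC was 0.14, against -0.0064 over all genes. An unadjusted p under 0.05 was found for 8 members, all 8 higher (23.5%; 31.2% of all genes). In 10 members the KO samples were all higher than the controls (16.6% of all genes did so) and in 2, TJP1 and PKP2, all lower (19.4% of all genes). The median member was at 3.41 FPKM in control and 4.54 FPKM in KO cells.

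TJP3, on chromosome 19 (hg19, 3708360 to 3750811), had 2.32, 2.66 and 1.8 FPKM in KO and 0.28, 0.72 and 0.56 FPKM in control samples. Every KO sample was above every control, and the log2 FC was 1.10 ± 0.15 (SE; adjusted p = 0.015). CLDN3, on chromosome 7 (73183327 to 73184600), had 3.48, 3.71 and 3.37 FPKM in KO and 1.58, 1.57 and 1.93 FPKM in control samples. It rose by 0.75 ± 0.069 (SE; adjusted p = 0.0082), while CLDN4, which lies 29272 bases away, had a log2 FC of 0.041 with an interval of -0.24 to 0.32. CGN, on chromosome 1 (151482986 to 151511168), had 1.86, 1.63 and 1.74 FPKM in KO and 0.74, 0.61 and 0.87 FPKM in control samples. It rose by 0.66 ± 0.07 (SE; adjusted p = 0.01).

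CDH1, on chromosome 16 (68771195 to 68869440), had 1.01, 0.89 and 0.62 FPKM in KO and 0.12, 0.27 and 0.41 FPKM in control samples. The groups did not overlap, and the log2 FC was 0.54 ± 0.12 (SE; adjusted p = 0.044). LLGL2, on chromosome 17 (73521161 to 73571290), had 6.95, 6.53 and 5.69 FPKM in KO and 3.53, 4.71 and 4.45 FPKM in control samples, a log2 FC of 0.50 ± 0.11 (SE; adjusted p = 0.046). All 5 genes stayed far under the other line. Mean levels in MDA-MB-231 KO and in MDA-MB-468 control cells were 0.84 and 44.4 FPKM for CDH1, 2.26 and 58.6 FPKM for TJP3, and 6.39 and 60.3 FPKM for LLGL2. They were 3.52 and 30.5 FPKM for CLDN3, and 1.74 and 18.2 FPKM for CGN. Adding 1 before the log makes the fold changes of such low genes smaller than the ratios of their FPKM.

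**Figure D1:**
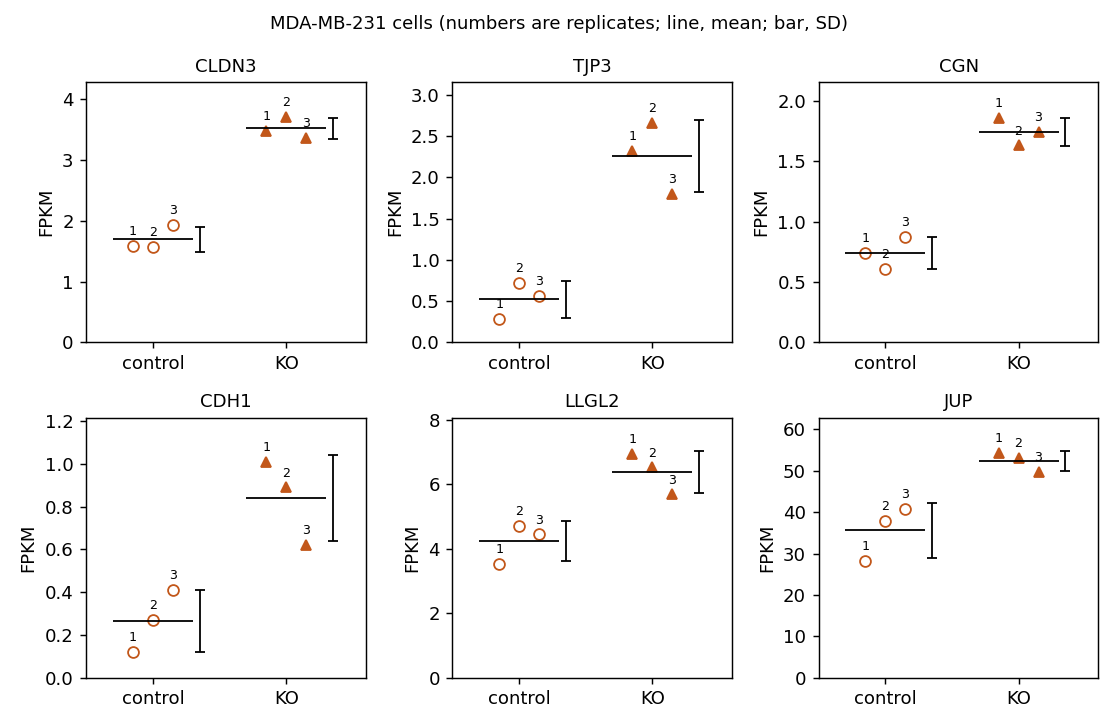
FPKM of the 5 genes called in MDA-MB-231 cells and of JUP in the 3 control and 3 KO samples, numbered by replicate, with the mean as a line and the SD as a bar. The KO samples lie above all controls in each panel, and the y axes start at 0 and differ between panels.

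The calls in MDA-MB-231 cells rested on few samples. Leaving out 1 library left 1 to 3 called members: 3 without control replicate 1, 2 or KO replicate 3, 2 without control replicate 3 or KO replicate 1, and 1 without KO replicate 2. CLDN3 was called each time, and CDH1 and LLGL2 were not called in any. Over all genes, 99 to 311 were called in these fits. With all samples and the replicate number as a block, 0 members and 0 of all genes were called. Control replicate 1 was the lowest control for 15 of the 21 members with a mean of 1 FPKM or more (71.4%; 40.5% of all genes), and KO replicate 1 the highest KO sample for 15 of 24 (62.5%; 30.1% of all genes). Without both, 0 members and 0 of all genes were called by limma (7 members and 2485 genes at an unadjusted p under 0.05). The log2 FCs were 0.97 for TJP3, 0.73 for CLDN3, 0.63 for CGN, 0.39 for CDH1 and 0.35 for LLGL2. Members above the control mean were 21 of 34 without both, and 21 without control replicate 1 alone, against 27 with all samples. Change also moved with base composition: Spearman's rho between log2 FC and GC content was 0.29 across the 10875 genes with a GC value in MDA-MB-231 cells and 0.51 across the 34 members, and 0.31 and 0.24 in MDA-MB-468 cells. Genes are not independent replicates here. With a correction for GC content and length, chosen after seeing the data, 4 of the 5 were called, all but LLGL2. This correction gave 461 called genes over all genes.

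Other members were higher in each MDA-MB-231 KO sample without being called. JUP had 54.3, 53.1 and 49.7 FPKM in KO and 28.2, 37.8 and 40.7 FPKM in control samples, a log2 FC of 0.56 (adjusted p = 0.058). ST14 had 3.12, 2.07 and 1.23 FPKM in KO and 0.5, 1.04 and 1.08 FPKM in control samples, a log2 FC of 0.72 with an interval of 0.095 to 1.34 (adjusted p = 0.12). In both, replicate 1 was the lowest control and the highest KO sample. OCLN (0.33), CDH3 (0.25) and PKP3 (0.21) did not overlap either, with adjusted p of 0.068, 0.16 and 0.17. CLDN7 (0.62, interval of -0.11 to 1.35), F11R (0.45) and CLDN1 (0.34, with 3.98, 2.61 and 3.16 FPKM in KO and 3.02, 1.85 and 2.19 FPKM in control samples) overlapped. TJP1 and PKP2, whose control levels overlapped between the lines, lay below the controls, at -0.13 (adjusted p = 0.16) and -0.22 (adjusted p = 0.18).

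The rest of the list stayed near 0 in MDA-MB-231 cells. EPCAM had 15.8, 13.5 and 12.7 FPKM in KO and 12.4, 12.8 and 16.7 FPKM in control samples, a log2 FC of 0.009 with an interval of -0.32 to 0.34. Log2 FCs were -0.0017 for CTNNA1, -0.037 for CTNNB1, 0.14 for CTNND1, 0.057 for DSP, 0.11 for DSG2, 0.14 for DSC2, 0.083 for MARVELD2 and 0.13 for CRB3. SPINT1 (0.16) and SPINT2 (0.15) had wide spreads between replicates. ESRP2 was at 0.14, and the factors that were lowest in control cells stayed under 1 FPKM: KO means were 0.00667 FPKM for ESRP1, 0.00333 FPKM for GRHL2, 0.163 FPKM for OVOL2, 0.613 FPKM for GRHL1 and 0.0367 FPKM for MARVELD3. DSC3 was listed at 0 in KO cells too.

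The change after KO was then compared between the lines, as the log2 FC in MDA-MB-468 minus that in MDA-MB-231 cells. None of the 34 was called higher (4.29% of all genes were) and 2 were called lower (4.41% of all genes were), TJP3 at -1.05 ± 0.17 (SE; adjusted p = 0.0025) and CDH1 at -0.76 ± 0.16 (SE; adjusted p = 0.014). For CDH1 the log2 FC was -0.22 in the MDA-MB-468 line and 0.54 in the MDA-MB-231 line, and for TJP3 it was 0.052 and 1.10. Both kept their call in all 20 alternatives that left the thresholds as they were, the 12 that left out 1 library included. Among the 20, the filter at a mean log2 value of 2 kept both genes only through their MDA-MB-468 levels. Leaving out replicate 1 of both MDA-MB-231 groups was not run for this difference. CLDN3 (-0.49, adjusted p = 0.042), CGN (-0.42, adjusted p = 0.017), PKP2 (0.38, adjusted p = 0.047) and TJP1 (0.33, adjusted p = 0.046) passed the p threshold but not the limit of 0.5. With the replicate number as a block, CLDN3, PKP2 and TJP1 lost the p threshold (adjusted p of 0.08, 0.11 and 0.064). The median difference over the 34 genes was -0.22, against 0.02 over all genes.

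Other genes of the same structures were counted from lists of 100 further symbols, of which 69 were in the table. In MDA-MB-468 KO cells 2 were called higher (2.9%; 1.33% of all genes) and 1 lower (1.45%; 0.815% of all genes). CLDN10, a claudin that forms ion channels, went from 55.2 to 20.7 FPKM, a log2 FC of -1.39 (adjusted p = 0.023). CLDN8 rose by 0.56 (adjusted p = 0.027), from 39.2 to 58.4 FPKM, and CTNNAL1 (α-catulin) by 1.33 (adjusted p = 0.014), from 1.52 to 5.4 FPKM. Both claudins were listed at 0 in MDA-MB-231 samples. In MDA-MB-231 KO cells 8 of 69 were called higher (11.6%; 2.39% of all genes) and 0 lower (1.31% of all genes). The median log2 FC of the 69 genes was -0.017 in the MDA-MB-468 line and 0.033 in the MDA-MB-231 line, where 30 and 43 of them lay above the control mean. LSR, which recruits tricellulin to cell corners, rose by 0.87 (adjusted p = 0.012) and the junction receptor CXADR by 0.59 (adjusted p = 0.029). PPL (periplakin) rose by 1.01 (adjusted p = 0.026) and the polarity gene PARD6B by 0.79 (adjusted p = 0.033). Of the epithelial identity genes, the ETS factors ELF3 and EHF rose by 1.14 (adjusted p = 0.031) and 0.51 (adjusted p = 0.021), and the mucin MUC1 by 1.45 (adjusted p = 0.046). The leukocyte marker in the table, CD14, moved with these genes, from 0.79 to 1.39 FPKM in control and 2.65 to 4.9 FPKM in KO MDA-MB-231 samples, and its part in the result was not tested.

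Of the repressors of epithelial genes, 4 of 9 were in the table, and none was called after KO in either line. ZEB1 was at 11.9 FPKM in control MDA-MB-231 and 0.0633 FPKM in control MDA-MB-468 cells, and its log2 FC after KO was 0.024 in MDA-MB-231 cells (adjusted p = 0.88) and 0.11 in MDA-MB-468 cells (adjusted p = 0.43). ZEB2 and SNAI2 were listed at 0 in MDA-MB-468 samples. In MDA-MB-231 cells SNAI2 had a log2 FC of -0.45 (adjusted p = 0.015), under the limit of 0.5, and ZEB2 of -0.39 (adjusted p = 0.061). TCF3 was expressed in both lines, with control means of 74.6 FPKM (MDA-MB-468) and 54.1 FPKM (MDA-MB-231). Its log2 FC after KO was near 0, at 0.0033 for the former line and 0.0053 for the latter. The levels of ZEB1, ZEB2 and SNAI2 were higher in the control line in which CDH1 was lower. TCF3 went the other way, 0.46 higher on the log2 scale in control MDA-MB-468 cells, under the limit of 0.5. These levels describe 2 cell lines.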

How the data were processed

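RNA of 12 samples was prepared with a stranded mRNA kit. The authors trimmed reads, aligned them with STAR to hg19 and counted genes with RSEM, and deposited log2(FPKM + 1) values after removing genes with a mean or an SD of FPKM under 1. The annotation and the strand setting of the counting are not given in the sources used here; 22 of the 34 members have an annotated gene on the opposite strand, whose reads could then be mixed in. Of all values, 99.8% are FPKM with 2 decimals within 0.0001; the others look like means over rows of 1 symbol. Depth per sample is unknown, so no counting interval is given.

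The deposited log2 values were analysed with limma 3.58.1 in R 4.3.3 (lmFit, eBayes), each line alone, the 6 controls for the lines, and all 12 samples for the difference between the lines' changes. Intervals are 95%. The steps were tested on simulated data. FPKM per sample are 2 to the power of the value, minus 1. Full values are given for called members, for CDH1, EPCAM and CLDN1, and for the widest and narrowest gap between control lines within a role; JUP and ST14 were added after their values were seen. Of the further lists, called genes and ZEB and SNAI repressors are named, except 1 gene that is not reported here. The members and all lists were chosen with earlier results of these data known. Positions are from GENCODE on hg19; promoter sequences, for 19 of the 34 members, are from RefSeq on GRCh38.p14. GC content and length were matched for 94.3% of genes.

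In MDA-MB-468 cells the replicate numbers of the titles were used for the block. Deviations from the group means correlated weakly for the same number, at 0.254, 0.161 and 0.119. Control 3 correlated slightly better with KO 2 (0.131). The numbers in the sample descriptions (control 26 to 28, KO 25 to 27) do not match those of the titles. Whether the samples of this line are paired is therefore open. The alternatives were a pseudocount of 0.1, a filter at a mean log2 value of 2, an intensity trend, scaling to the 75th percentile, quantile normalization, 1 fit of all samples, a replicate block, other thresholds and leaving out each sample. Corrections for GC content and length, and leaving out replicate 1 of both MDA-MB-231 groups, were chosen after seeing the data.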

Additional observations from a re-analysis of the deposited data

Results flagged for a closer look

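For 6 of the 34 genes, the test of the difference itself found that the change after KO differed between the lines (limma, adjusted p under 0.05, log2 FC in MDA-MB-468 minus that in MDA-MB-231 cells). It was negative for TJP3 (-1.05, adjusted p = 0.0025), CDH1 (-0.76, adjusted p = 0.014), CLDN3 (-0.49, adjusted p = 0.042) and CGN (-0.42, adjusted p = 0.017). For these 4 genes the log2 FC was higher in MDA-MB-231 cells, where the control means were 0.52, 0.267, 1.69 and 0.74 FPKM. It was positive for PKP2 (0.38, adjusted p = 0.047) and TJP1 (0.33, adjusted p = 0.046), the 2 genes with the smallest gaps between the control lines. PKP2 had log2 FCs of 0.16 in the MDA-MB-468 line and -0.22 in the MDA-MB-231 line, and TJP1 of 0.20 and -0.13, with the KO samples above all controls in the former and below them all in the latter. With the replicate number as a block, CLDN3, PKP2 and TJP1 had adjusted p of 0.08, 0.11 and 0.064, while those of TJP3, CDH1 and CGN stayed under 0.05. Without the block, the 6 were found among 34 genes (17.6%), where 14.7% of all genes had such an adjusted p. The cause was not tested.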

How the results depend on the processing

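Of 34 genes, 5 were called after KO in MDA-MB-231 cells. With a pseudocount of 0.1, 3 were called (516 of all genes), without CDH1 and LLGL2. The filter at a mean log2 value of 2 removes CDH1, CGN, CLDN3 and TJP3, and other members low in this line, CLDN1 and ST14 among them. Of the fewer members then tested, 2 were called, LLGL2 and JUP (448 of all genes). At a limit of 1 only TJP3 was called (1 gene). Leaving out each replicate gave 1 to 3, and leaving out replicate 1 of both groups gave 0. In this line the titles and the sample descriptions (10 to 12 in control and in KO) give the same pairing. Same-number correlations were -0.054, 0.074 and -0.115, and not every sample correlated best with its own number. Whether the samples are paired is therefore open. The replicate block gave 0 called members and 0 of all genes with limma (8 members and 3126 genes at an unadjusted p under 0.05), where 426 genes were called without it. Together with the GC and length correction, the block gave 3 members and 389 of all genes.

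For the difference between the lines' changes, 2 members and 1004 of all genes were called. With a pseudocount of 0.1, with scaling to the 75th percentile or with the GC and length correction, 4 members were called. Over all genes these gave 1007, 1004 and 976. There were 5 members with an unadjusted p, 1 at a limit of 1, and 2 to 5 when each replicate was left out (724 to 1190 of all genes). With the replicate block 2 members and 992 of all genes were called. In MDA-MB-468 cells 0 members were called under every alternative run, an unadjusted p and the replicate block included (14 members had an unadjusted p under 0.05, with log2 FCs under the limit). Over all genes 247 were called there, and 0 to 474 when each replicate was left out. There were 400 with the filter and 537 with 1 fit of all samples. The GC and length correction gave 385 without and 487 with the block. A block by the number in the descriptions gave 0. In that block, control 28 and KO 25, whose numbers have no match, were put together as 1 pair. In MDA-MB-231 cells 99 to 311 genes were called when each replicate was left out. The control lines differed in 31 members with every sample, in 31 whichever replicate was left out, in 29 with the filter and in 28 at a limit of 1. Without a depth per sample, the precision of values under 1 FPKM cannot be given.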
